A study of Homo sapiens with 30 samples.

Results

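Nutlin-3 was given to wild-type (WT) HCT116 cells, a colon adenocarcinoma cell line, and RNA was measured on 6 Illumina bead arrays, chosen by their titles from the 30 of the study. The nutlin arrays are the 3 titled as WT cells with 4 µM nutlin, kept in the drug for 16 hours after seeding overnight, and they are set against the 3 arrays titled as untreated WT cells. The other 24 arrays hold the same treatments in an isogenic HCT116 form without p53 (p53KO), and both genotypes with actinomycin D. The nutlin and untreated p53KO arrays, also 6, serve here as a comparison. The labels name no vehicle for the untreated cells, and they do not say how many clones the p53KO form comes from. Nothing in them says that the arrays of a group stand for separate cultures, so the p-values cover the spread between arrays, and that spread may be technical.

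p53 is a transcription factor that cells make all the time and destroy through MDM2, a ubiquitin ligase that binds it. Nutlin-3 occupies the p53 pocket of MDM2, so p53 is spared and can switch on its target genes, which include cell cycle inhibitors, death receptors, repair and metabolic enzymes and MDM2 itself. p21, the product of CDKN1A, then keeps E2F and FOXM1 programmes of DNA replication and mitosis low. Metallothioneins, which make up the other gene family described here, are small cysteine-rich proteins that bind zinc and copper, and the factor MTF1 induces them through metal response elements when free zinc goes up.

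The raw 75th percentile was 228.4, 221.9 and 269.6 intensity units on the nutlin arrays, against 240.3, 266.7 and 272.6 on the untreated arrays, and 12010 to 12244 probes were detected, against 12178 to 12547. Of 18 markers of colon epithelium 9 passed the detection filter. Of these EPCAM, an epithelial adhesion molecule, had a normalised log2 level of 11.54 to 12.06 with nutlin and 11.76 to 12.02 without, and KRT18, an epithelial keratin, 13.23 to 13.74 and 13.41 to 13.55. Of 25 markers of other cell types 7 passed, and PTPRC of leukocytes, PECAM1 of endothelium and ALB of hepatocytes were not among them. KRT20, VIL1, CDX1 and CDH17, which mark differentiated colon cells, were also not tested.

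The third nutlin arrays of both genotypes went against their labels. PROM1, a membrane glycoprotein detected on all untreated WT arrays and on none of the untreated p53KO arrays, had 9.0, 8.75 and 4.36 on the arrays labelled WT nutlin 1, 2 and 3, against 8.95, 8.80 and 8.68 on the untreated WT arrays. On the arrays labelled p53KO nutlin it had 4.27, 4.19 and 9.07. In 100 genes that separated the genotypes on all arrays without nutlin, 95 and 94 lay on the WT side on the arrays labelled WT nutlin 1 and 2, and 10 on the array labelled WT nutlin 3. On the arrays labelled p53KO nutlin 1, 2 and 3 there were 2, 3 and 92 on the WT side. Counts of calls are therefore given with the third nutlin arrays, as labelled, and without those of both genotypes, and neither array was moved to another group. Changes of single genes and of lists are those without the third arrays, with the value as labelled beside the main ones.

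Slides add a second limit. Nutlin 1 and 2 and untreated 1 lay on slide 2, untreated 2 and 3 on slide 4, and the array labelled nutlin 3 alone on slide 6. Untreated 1 had stress genes far above untreated 2 and 3. FOS, an immediate early transcription factor, had 9.66 there, against 8.28 and 7.62, and DDIT3, a transcription factor of stress responses, 10.48 against 7.92 and 7.31. Values are therefore also set against untreated 1, on the same slide, and against untreated 2 and 3, on another.

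The stretches before 4 genes are shown because MT1X, MT2A and SLC30A1 rose and E2F1 of the replication genes fell. They are the 250 bases before the gene start on the gene's strand, from RefSeq on GRCh38.p14, at chr16:56682220-56682469 (plus) for MT1X, chr16:56608334-56608583 (plus) for MT2A, chr1:211579162-211579411 (minus) for SLC30A1 and chr20:33686386-33686635 (minus) for E2F1. Capitals mark, on either strand, the core of the metal response element (TGCACNC or TGCGCNC) in the first 3, and an E2F site (TTTCCCGC, TTTCGCGC, TTTGCCGC or TTTGGCGC) in E2F1.
MT1X: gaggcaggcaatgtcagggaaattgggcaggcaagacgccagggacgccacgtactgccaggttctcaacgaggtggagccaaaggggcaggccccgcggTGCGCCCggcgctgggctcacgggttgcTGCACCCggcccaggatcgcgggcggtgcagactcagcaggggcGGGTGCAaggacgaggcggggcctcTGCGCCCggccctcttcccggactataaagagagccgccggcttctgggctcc
MT2A: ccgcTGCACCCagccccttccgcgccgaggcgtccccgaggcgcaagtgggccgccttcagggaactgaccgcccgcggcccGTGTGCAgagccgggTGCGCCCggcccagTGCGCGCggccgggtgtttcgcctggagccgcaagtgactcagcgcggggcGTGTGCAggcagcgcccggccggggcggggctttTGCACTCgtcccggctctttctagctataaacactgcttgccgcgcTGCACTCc
SLC30A1: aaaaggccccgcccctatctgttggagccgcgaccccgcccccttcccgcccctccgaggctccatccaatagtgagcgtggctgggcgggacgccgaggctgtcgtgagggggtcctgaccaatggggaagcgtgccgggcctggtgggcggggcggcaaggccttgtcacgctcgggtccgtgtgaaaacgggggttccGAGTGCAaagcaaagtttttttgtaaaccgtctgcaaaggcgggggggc
E2F1: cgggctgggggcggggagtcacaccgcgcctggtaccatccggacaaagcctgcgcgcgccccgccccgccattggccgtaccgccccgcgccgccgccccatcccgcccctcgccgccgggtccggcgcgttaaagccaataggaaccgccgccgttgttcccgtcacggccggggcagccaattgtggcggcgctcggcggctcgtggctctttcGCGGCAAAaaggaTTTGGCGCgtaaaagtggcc
MT1X had 4 matches of the metal core, MT2A 7 and SLC30A1 1, and E2F1 had 2 E2F matches. The metal core was present in 24.7% of 27305 gene promoters of this length and the E2F site in 2.79%, and matches of different motifs were searched separately and can overlap. The next counts cover only named and called genes that had a promoter here, so MT1E and MT1P3, for example, are left out. The metal core was in 3 of 4 such metallothionein and zinc transport genes. It was also in 4 of 6 such replication and mitosis genes called lower (MCM2, FBXO5, PCNA and E2F1). Among such p53-list genes called higher the metal core was in 2 of 6 (TIGAR and RPS27L). The E2F site was in 2 of the 6 replication and mitosis genes (PCNA and E2F1). It was also in 1 of the 6 p53-list genes (CYFIP2) and in 0 of the 4 metallothionein and zinc transport genes. A match is a description of the letters and shows no binding.

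Without the third arrays, limma called 167 of 11526 features (1.45%), 70 higher with nutlin (0.607%) and 97 lower (0.842%), at an adjusted p under 0.05. Of these, 22 and 20 differed at least 2-fold. As labelled, 14 were higher (0.121%) and 13 lower (0.113%), 27 in all (0.234%), of which 8 and 3 differed at least 2-fold. The 2 sets shared 24 features, all with the same sign, which is 24 of 27 and 24 of 167. The counts turn on single arrays. Without nutlin 1 the 167 calls came to 9, and without nutlin 2 to 11, with 1 nutlin array left that is assumed to vary like the other groups. Without untreated 2 they came to 88 and without untreated 3 to 73. The 27 calls as labelled came to 9 without nutlin 1, 8 without untreated 2 and 43 without the array labelled nutlin 3. Of the 49 named genes among the 167, MT1X, MT1P3, MT2A and SULF2 were called with any 1 of the 5 arrays left out.

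**Figure D1:**
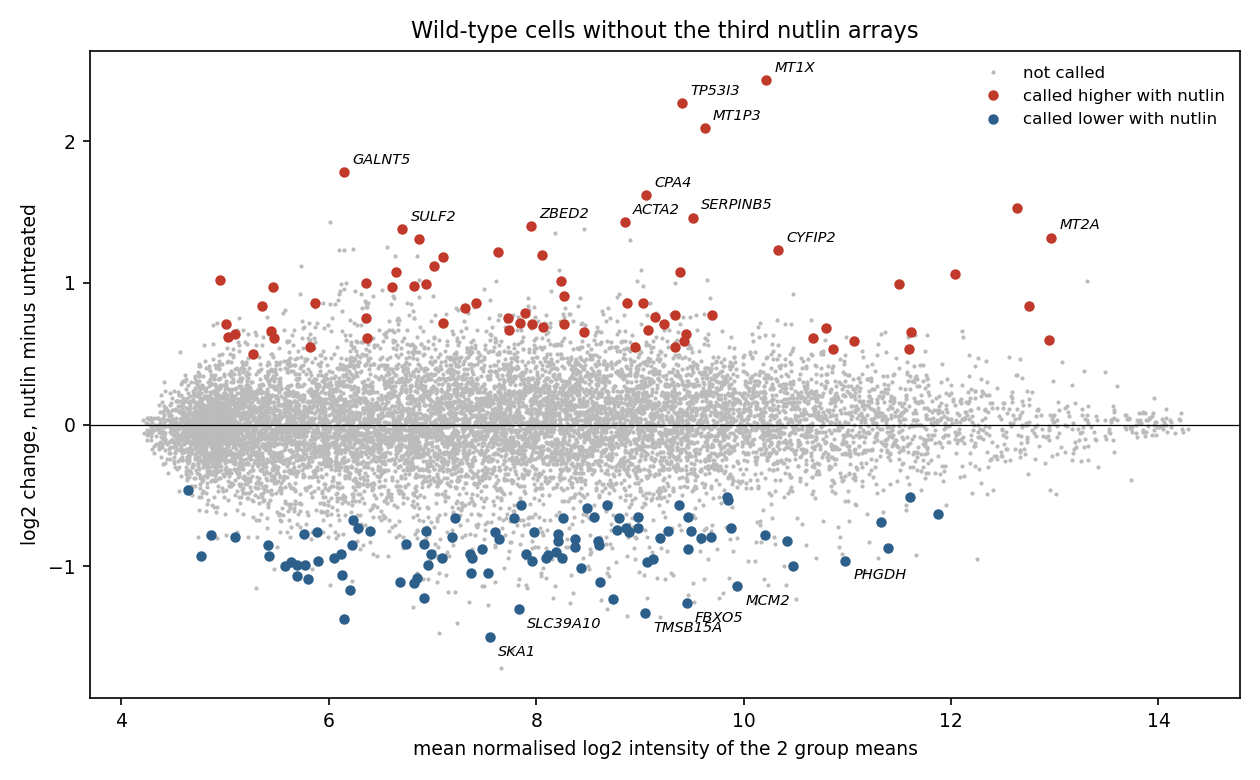
Each point is 1 of 11526 features in WT cells without the third nutlin arrays; the horizontal axis is the mean normalised log2 intensity of the 2 group means and the vertical axis the log2 change, nutlin minus untreated. Red points are the 70 features called higher and blue points the 97 called lower; MT1X (2.43), TP53I3 (2.27) and MT1P3 (2.09) stand highest among those named, and SKA1 (-1.5) is the lowest called.

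Metallothionein genes rose with nutlin, 4 of the 7 that were tested. MT1X had 11.29, 11.58 and 11.68 on the nutlin arrays, against 8.56, 9.25 and 9.21 on the untreated arrays. All 3 nutlin values, the third included, lay above all untreated values. The log2 change was 2.43 ± 0.22 (SE, adjusted p = 1.2e-06, limma) without the third array and 2.51 ± 0.19 (adjusted p = 1.4e-08) as labelled. MT2A had 13.64, 13.61 and 13.74 with nutlin and 12.27, 12.30 and 12.33 without, a change of 1.32 ± 0.14 (adjusted p = 1.5e-05; as labelled 1.36). MT1P3, annotated as a metallothionein pseudogene on chromosome 20, had 10.59, 10.75 and 10.49, against 7.95, 8.86 and 8.92, a change of 2.09 ± 0.25 (adjusted p = 7.3e-05; as labelled 2.03). Metallothionein copies are nearly identical, so 1 probe may read several of them and the members are uncertain.

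The calls of MT1E and MT1G depended on the arrays kept. MT1E had 5.55, 5.37 and 4.82 with nutlin and was not detected on any untreated array, with 4.34, 4.33 and 4.63 there. It was at least 1.63-fold higher (adjusted p = 0.012 without the third array, 0.077 as labelled), and without nutlin 1 or nutlin 2 it was not called, with an adjusted p of up to 0.18. MT1G had 6.91, 6.79 and 7.37, against 5.38, 5.87 and 5.58, so its groups did not overlap. Its change was called as labelled (1.41 ± 0.30, adjusted p = 0.044) and not without the third array (1.24 ± 0.34, adjusted p = 0.065), nor with any other single array left out. MT1F (0.57 ± 0.38, adjusted p = 0.51) and MT1B (-0.11 ± 0.49) were not called. The list of 15 genes, 8 of them tested, also holds MTF1, and in it 4 were called higher and 0 lower, with a median log2 change of 1.13, beside 70 and 97 of 11526 and a median of 0.00 over all features. The median was 1.23 against untreated 1 on the same slide, 1.18 against untreated 2 and 3, and 1.27 on the array labelled nutlin 3, and as labelled it was 1.08.

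Among zinc transporters 1 exporter rose and 1 importer fell, beside 70 higher and 97 lower calls of 11526 features. SLC30A1 (ZnT1), which exports zinc across the plasma membrane, had 7.18, 7.0 and 7.23 with nutlin and 6.75, 5.77 and 5.85 without, a change of 0.97 ± 0.24 (adjusted p = 0.044; as labelled 1.01). The groups did not overlap, but untreated 1 came close, so the difference was 0.34 against untreated 1 and 1.28 against untreated 2 and 3. The call was lost without nutlin 1, nutlin 2, untreated 2 or untreated 3 (adjusted p up to 0.33). The call was also lost with the slide as a random or fixed block, on slide 2 alone, with the WT arrays alone, without background correction, with the authors' processed intensities and without the filter on dim probes (adjusted p = 0.057 to 0.51). SLC39A10 (ZIP10), a zinc importer, had 7.47, 6.89 and 7.26 with nutlin, below 8.12, 8.60 and 8.72 on the untreated arrays. It fell by 1.30 ± 0.25 on the log2 scale (adjusted p = 0.013), and by 1.27 as labelled, and was not called without nutlin 2 (adjusted p = 0.33). The other 16 tested transporters of the 2 zinc families were not called. MTF1, the metal-sensing factor, had 8.02, 7.81 and 7.09 with nutlin and 8.15, 6.15 and 7.21 without, and its groups overlapped (0.75 ± 0.47, adjusted p = 0.48).

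Metallothionein genes also rose in p53KO cells. Without the third arrays, nutlin in p53KO cells called 4 features, all higher (0.0347% of those tested). They were MT1X (2.32 ± 0.22, adjusted p = 1.0e-06), MT2A (1.52 ± 0.14, adjusted p = 1.0e-06), MT1P3 (2.09 ± 0.25, adjusted p = 7.4e-05) and a probe without a gene symbol. The WT response minus the p53KO response was 0.11 ± 0.31 for MT1X, -0.20 ± 0.20 for MT2A and 0.00 ± 0.36 for MT1P3 (adjusted p = 1.0 for each). Such a p does not show that the responses were alike. SLC30A1 differed by 0.99 ± 0.24 in p53KO cells (adjusted p = 0.73) and SLC39A10 by -1.14 ± 0.25 (adjusted p = 0.29), neither called there.

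**Figure D2:**
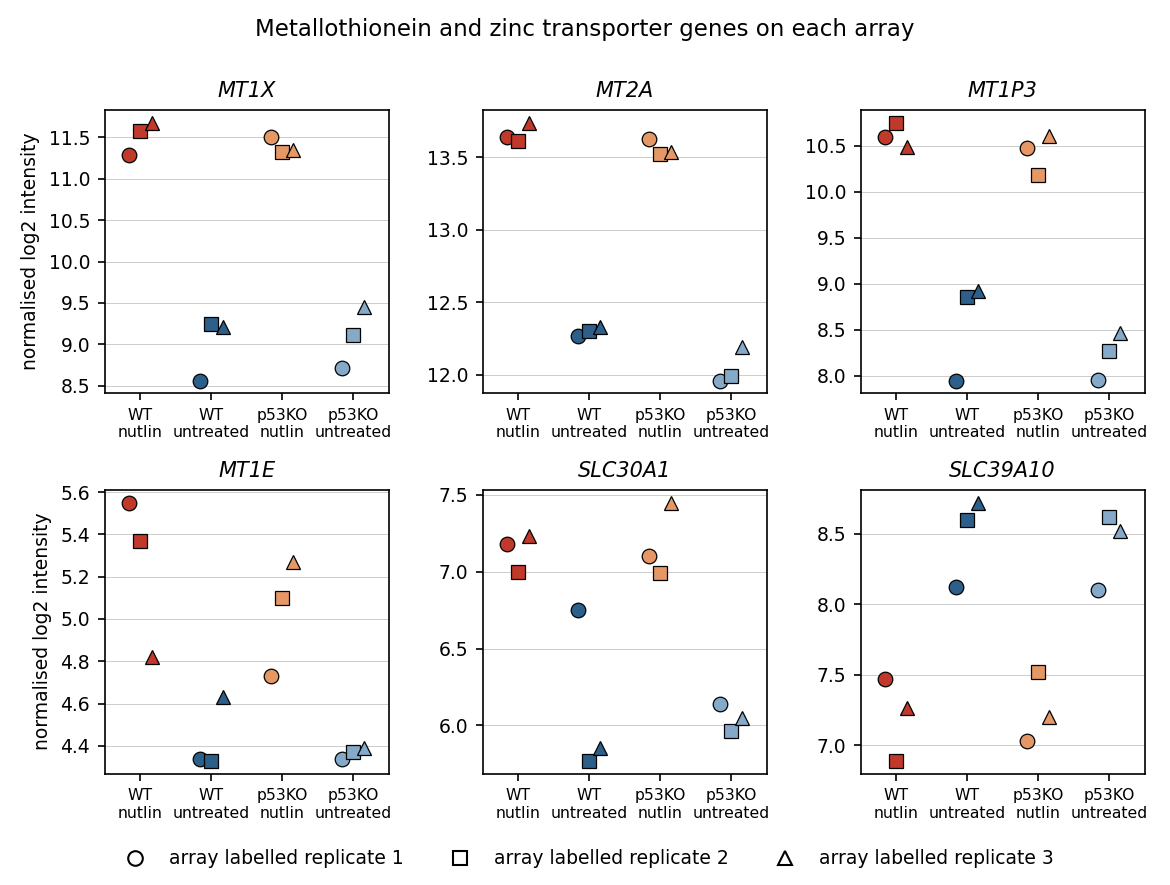
Normalised log2 intensity of metallothionein and zinc transport genes on each nutlin and untreated array of WT and p53KO cells, with nutlin left of untreated and a marker shape per replicate number; each point is 1 array. MT1X lies at 11.29 to 11.68 on the WT nutlin arrays and at 8.56 to 9.25 on the untreated ones, and the third nutlin arrays (11.68 in WT, 11.35 in p53KO) sit with the others of their group.

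Several p53 targets rose once the third arrays were left out. TP53I3, a quinone oxidoreductase-like protein known as a p53-induced gene, had 10.19, 10.89 and 6.85 with nutlin, against 9.18, 7.68 and 7.94 without. Nutlin 1 and 2 lay above all untreated arrays and the array labelled nutlin 3 below all of them. Without the third array it rose by 2.27 ± 0.49 (adjusted p = 0.027), while as labelled the difference was 1.04 ± 0.85 (adjusted p = 0.67). A second, dimmer TP53I3 probe differed by 0.65. On the arrays labelled p53KO nutlin the level was 6.28, 6.88 and 10.70, against 6.09, 6.44 and 6.52 in untreated p53KO cells, so here too the third array stood apart.

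Targets at the membrane and in metabolism gave further calls. GALNT5, a glycosyltransferase that starts mucin-type sugar chains, had 7.36, 6.72 and 6.26 with nutlin and 5.72, 5.09 and 4.97 without, and was the only p53-list gene called higher both ways (1.78 ± 0.24, adjusted p = 0.00042; as labelled 1.52 ± 0.25). SERPINB5 (maspin), a serpin, had 10.23, 10.25 and 9.01, against 9.42, 8.22 and 8.68 (1.46 ± 0.32, adjusted p = 0.027; as labelled 1.05, adjusted p = 0.24). CYFIP2, which belongs to the actin-regulating WAVE complex, had 10.96, 10.95 and 8.13, against 10.13, 9.55 and 9.48 (1.23 ± 0.19, adjusted p = 0.0026; as labelled 0.29, adjusted p = 0.87). In both of these the first pair of nutlin arrays lay above every untreated array, and in CYFIP2 the array labelled nutlin 3 lay below every one.

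TIGAR, a phosphatase that lowers glycolytic flux, had 8.72, 8.71 and 8.4 with nutlin and 8.36, 7.44 and 7.62 without (0.91 ± 0.19, adjusted p = 0.021; as labelled 0.80, adjusted p = 0.12). EI24, a membrane protein of the endoplasmic reticulum, changed by 0.65 ± 0.14 (adjusted p = 0.028; as labelled 0.52, adjusted p = 0.17), with 0.68 for its second probe, and RPS27L, a ribosomal protein paralogue, by 0.60 ± 0.15 (adjusted p = 0.044; as labelled 0.12, adjusted p = 0.92). All 3 lay higher on nutlin 1 and 2 than on any untreated array. SULF2, an extracellular sulfatase outside the lists, had 7.39, 7.41 and 4.89, against 5.93, 6.18 and 5.93 (1.38 ± 0.20, adjusted p = 0.00089; as labelled 0.55, adjusted p = 0.71; second probe 0.65). In p53KO cells GALNT5 differed by 0.74 ± 0.24 and EI24 by 0.52 ± 0.14 (adjusted p = 0.92 for both), neither called. Leaving out nutlin 1 ended the calls of TP53I3, GALNT5, SERPINB5, CYFIP2, TIGAR, EI24 and RPS27L, and leaving out nutlin 2 all of these but GALNT5, with an adjusted p of up to 0.44. Without untreated 2, or without untreated 3, TP53I3, SERPINB5, TIGAR and RPS27L were not called either, and EI24 was not called without untreated 1 or untreated 3.

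The classical p53 targets were not called, and untreated 1 lay high in them. CDKN1A had 13.78, 13.85 and 10.62 with nutlin and 13.91, 12.27 and 12.22 without. Nutlin 1 and 2 were thus level with untreated 1 and far above untreated 2 and 3. The change was 1.01 ± 0.39 (adjusted p = 0.19) without the third array and -0.05 ± 0.71 as labelled, while against untreated 1 alone it was -0.09 and against untreated 2 and 3 it was 1.57. A second, dimmer CDKN1A probe differed by 1.71. MDM2 had 6.44, 6.13 and 5.31, against 6.15, 4.50 and 4.86, the untreated probe being detected on 2 of 3 arrays (1.12 ± 0.38, adjusted p = 0.14; 0.14 against untreated 1 and 1.61 against untreated 2 and 3). GDF15, a secreted stress cytokine, had 11.62, 11.76 and 8.98, against 12.70, 10.27 and 10.15 (0.65 ± 0.52, adjusted p = 0.61). It differed by -1.01 from untreated 1 and by 1.49 from untreated 2 and 3, so its direction turned with the untreated array chosen.

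Other well-known targets were not called either. ZMAT3, an RNA-binding zinc finger protein, had 9.04, 9.26 and 7.04 with nutlin and 8.81, 6.45 and 8.07 without (1.38 ± 0.41, adjusted p = 0.089), and SESN1, a sestrin that restrains mTORC1, 8.46, 8.23 and 5.86 against 8.28, 7.33 and 6.89 (0.84 ± 0.28, adjusted p = 0.13). The death receptor TNFRSF10B differed by -0.72 from untreated 1 and by 0.65 from untreated 2 and 3, and FAS by -0.26 and 0.51. BAX, a pore-forming death effector, had 7.0, 7.35 and 6.24, against 6.68, 6.54 and 6.59 (0.57 ± 0.19, adjusted p = 0.12), and differed by 0.50 and 0.61. RRM2B, a ribonucleotide reductase subunit, differed by 0.43 ± 0.19 and DDB2, which finds ultraviolet damage, by -0.03 ± 0.18, neither called. With the first untreated arrays of both genotypes left out as well, CDKN1A (adjusted p = 0.0013), MDM2 (0.0038), SESN1 (0.011), ZMAT3 (0.01), TNFRSF10B (0.012), GDF15 (0.025) and RRM2B (0.031) were called, and BAX (0.11), FAS (0.23) and DDB2 (0.66) were not.

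By role, 1 of 27 tested p53 targets in arrest and feedback was called higher and 0 lower (median 0.23), 2 and 0 of 22 in apoptosis (0.16), 0 and 2 of 13 in repair and nucleotide supply (0.03), 2 and 1 of 19 in metabolism and redox (0.48), and 2 and 0 of 26 at the membrane or secreted (0.35), beside 70 and 97 of 11526 and a median of 0.00 over all features. The lower ones were PCNA and UNG in repair and PHGDH in metabolism. UNG, a uracil-DNA glycosylase, changed by -0.69 ± 0.15 (adjusted p = 0.030), but its other, dimmer probes gave 0.33 and -0.88 and so disagree. The medians against untreated 1 alone were -0.29, -0.26, -0.35, 0.24 and 0.12 in the same order, and against untreated 2 and 3 they were 0.55, 0.51, 0.17, 0.52 and 0.63. On the array labelled nutlin 3 they were -0.37, -0.18, -0.40, -0.29 and -0.20, and over all 3 nutlin arrays as labelled -0.00, -0.01, -0.24, 0.25 and 0.13. Without the first untreated arrays 9 arrest genes and 6 apoptosis genes were called higher, beside 148 of all features. On slide 2 alone, where untreated 1 is the untreated array, 0 arrest genes were called higher and 6 lower, and 1 and 6 apoptosis genes, beside 711 and 617 of all features. BTG2, an antiproliferative p53 target, had no tested probe and was not analysed here.

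**Figure D3:**
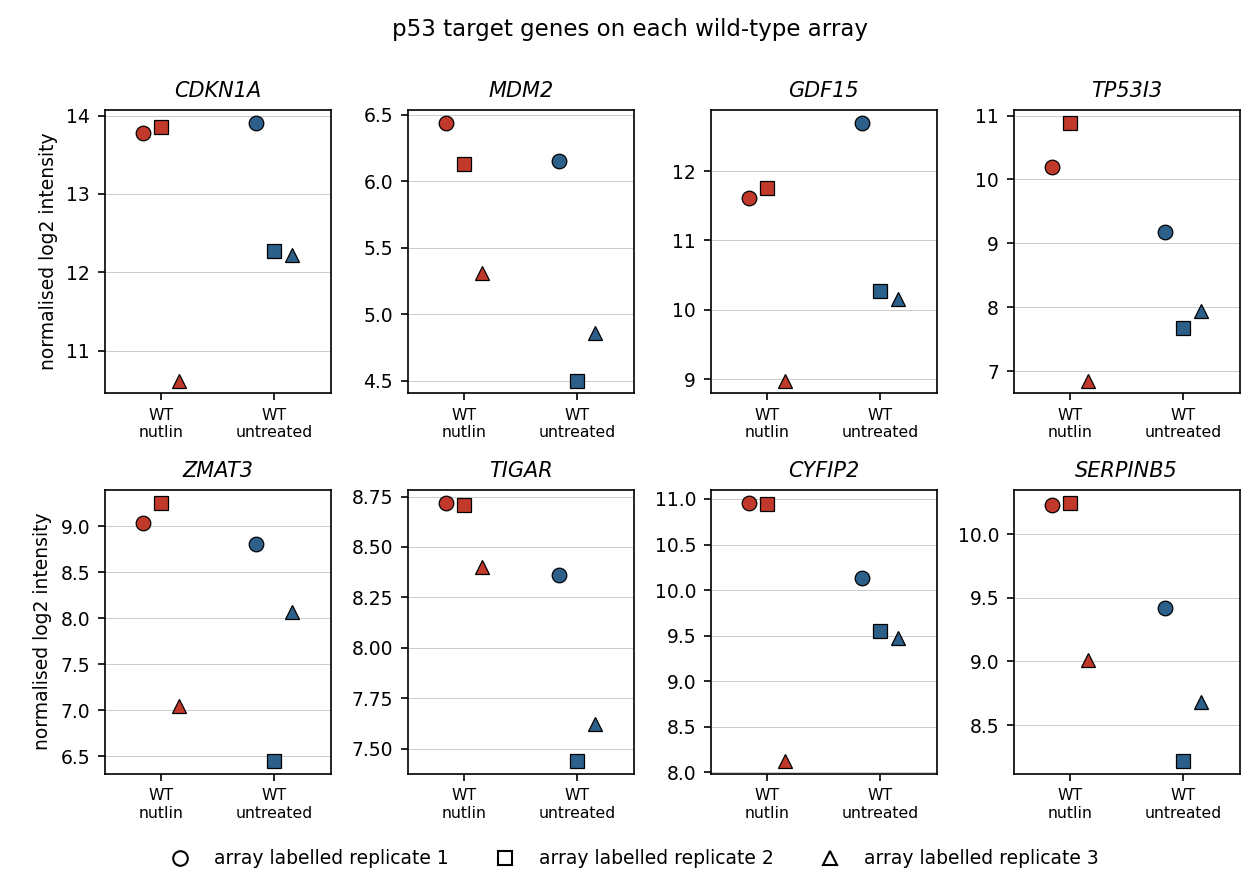
Normalised log2 intensity of p53 targets on each nutlin and untreated WT array, with nutlin left of untreated and a marker shape per replicate number. Each point is 1 array. CDKN1A lies at 13.78 and 13.85 on WT nutlin 1 and 2 beside 13.91 on untreated 1. The third array labelled WT nutlin (10.62) lies apart from the others of its label.

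Of 54 tested genes of DNA replication 8 fell, beside 97 of 11526 features (0.842%). The 8 came to 2 without the filter on dim probes, beside 56 lower calls of 18359 features. Without the first untreated arrays they came to 3, beside 166 of 11526. They came to 11 with the slide as a random block, beside 340, and to 15 with the replicate block, beside 229. With the WT arrays alone 0 were called lower, and 0 of all features. E2F1, a transcription factor of S-phase entry, had 6.42, 6.50 and 7.36 with nutlin and 7.61, 7.39 and 7.36 without, so nutlin 1 and 2 lay below all untreated arrays and the third did not. The change was -0.99 ± 0.23 (adjusted p = 0.032) without the third array and -0.69 ± 0.23 (adjusted p = 0.21) as labelled. MCM2, a subunit of the replicative helicase, had 9.39, 9.34 and 10.02, against 10.68, 10.43 and 10.43 (-1.14 ± 0.27, adjusted p = 0.034; as labelled -0.93, adjusted p = 0.16). FBXO5 (EMI1), which inhibits the anaphase-promoting complex, had 8.81, 8.83 and 10.51, against 10.24, 9.81 and 10.19 (-1.26 ± 0.30, adjusted p = 0.036; as labelled -0.69, adjusted p = 0.44). In FBXO5 the array labelled nutlin 3 lay above all untreated arrays.

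POLD1, the catalytic subunit of DNA polymerase delta, had 8.26, 8.12 and 8.12 with nutlin and 8.90, 9.20 and 8.93 without (-0.82 ± 0.18, adjusted p = 0.029), and TK1, thymidine kinase, 11.05, 10.86 and 10.90 against 11.88, 11.92 and 11.69 (-0.87 ± 0.21, adjusted p = 0.037). For both, the array labelled nutlin 3 also lay below all untreated arrays, and these 2 were the replication genes called as labelled (adjusted p = 0.041 and 0.049). Untreated p53KO cells lay below the untreated WT range too, at 8.76 to 8.77 for POLD1 and 11.21 to 11.40 for TK1. PCNA, the sliding clamp, changed by -0.63 ± 0.16 (adjusted p = 0.044), with -0.53 and -0.25 for its other probes. The remaining called members of the replication list, RFC4 (-1.0 ± 0.25) of the clamp loader and RPA2 (-0.75 ± 0.18) of the single-strand binding complex, are named after their values were seen. No gene of the list was called higher, the median was -0.74, and 47 of the 54 lay below every untreated array on nutlin 1 and 2, beside 16.1% of all features.

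Mitotic genes lay lower together, but 1 of 50 was called, beside 97 of 11526 features (0.842%) called lower. That count also moved with the setting. It came to 0 without the filter on dim probes, beside 56 lower calls of 18359 features. Without the first untreated arrays it came to 2, beside 166 of 11526. It came to 7 with the slide as a random block, beside 340, and to 19 with the replicate block, beside 229. With the WT arrays alone it was 0, and 0 of all features. FOXM1, a transcription factor of the G2/M programme, had 6.92, 6.78 and 7.47 with nutlin and 7.62, 8.19 and 7.89 without (-1.05 ± 0.25, adjusted p = 0.038; as labelled -0.85, adjusted p = 0.23). The median of the 50 genes was -0.93 and none was positive, beside 5777 positive of 11526 features. On nutlin 1 and 2, 43 of the 50 lay below every untreated array, beside 16.1% of all features. CDK1, the mitotic kinase, had 9.94, 9.37 and 11.41, against 10.81, 10.78 and 10.63 (-1.09 ± 0.31, adjusted p = 0.071; second probe -1.22). PLK1, a mitotic kinase, (-0.52 ± 0.35) and CCNB1, cyclin B1, (-0.47 ± 0.36) were not called either, and CCNB1 had 8.70 and 8.10 on nutlin 1 and 2 with 8.01 on untreated 1. Outside the lists, SKA1 (-1.5 ± 0.37) at the kinetochore, CENPU (-1.12 ± 0.23) at the centromere, PLK4 (-1.23 ± 0.30), which starts centriole duplication, and MXD3 (-1.22 ± 0.31), a MAX partner, were called lower.

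Both cell cycle lists had medians below 0 against untreated 1 (-0.72 for replication, -0.76 for mitosis) and against untreated 2 and 3 (-0.70 and -1.03). On the array labelled nutlin 3 the medians were 0.03 and 0.33, and over all 3 nutlin arrays as labelled they were -0.47 and -0.50. Fewer cycling cells and less RNA per cell cannot be told apart in bulk RNA. Every call in these lists was lost without nutlin 1 or without nutlin 2 (adjusted p of the named genes up to 0.53), and E2F1, MCM2, TK1 and PCNA also without any 1 untreated array.

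**Figure D4:**
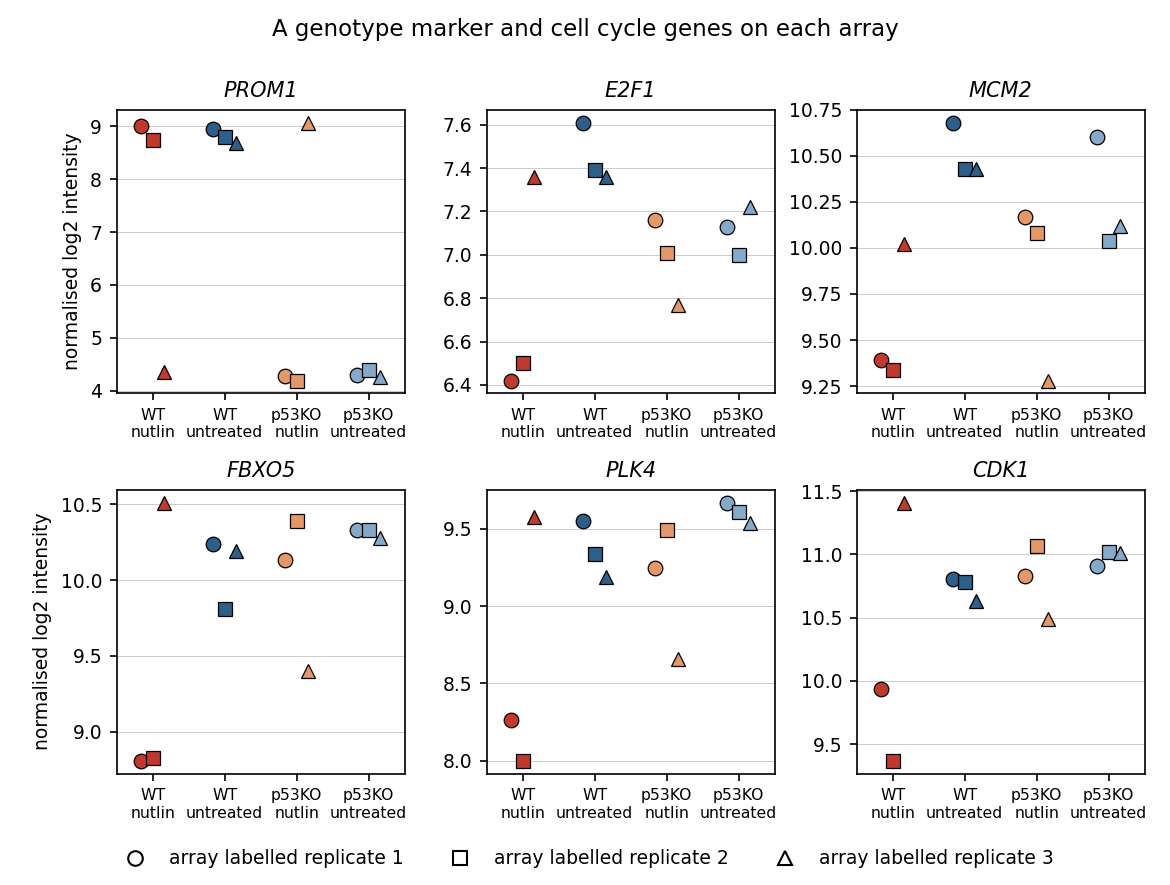
Normalised log2 intensity of PROM1 and of cell cycle genes on each nutlin and untreated array of WT and p53KO cells, with nutlin left of untreated and a marker shape per replicate number; each point is 1 array. E2F1 lies at 6.42 and 6.50 on WT nutlin 1 and 2 and at 7.36 to 7.61 on the untreated WT arrays, and PROM1 lies at 4.36 on the array labelled WT nutlin 3 and at 9.07 on the array labelled p53KO nutlin 3.

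Genes of the amino acid response, which the factor ATF4 induces, gave 3 lower calls of 42 tested, the same 3 as labelled, beside 97 of 11526 features (0.842%) and 13 as labelled (0.113%). CARS1, the cysteinyl-tRNA synthetase, had 6.76, 6.47 and 6.67 with nutlin and 7.84, 7.72 and 7.12 without (-0.94 ± 0.19, adjusted p = 0.014). PHGDH, the first enzyme of serine synthesis, had 10.54, 10.47 and 10.76, against 12.03, 11.27 and 11.09 (-0.96 ± 0.20, adjusted p = 0.023), and PCK2, the mitochondrial PEP carboxykinase, 7.38, 7.56 and 7.52 against 9.07, 8.28 and 7.96 (-0.96 ± 0.23, adjusted p = 0.036). In all 3 every nutlin array lay below every untreated array and untreated 1 was the highest. PHGDH was also below that range in untreated p53KO cells, at 10.57 to 10.66. The list's median was -0.35 (-0.36 as labelled), but -0.82 against untreated 1 and -0.16 against untreated 2 and 3. ASNS, asparagine synthetase, differed by -2.29 from untreated 1 and by -0.40 from the others and was not called (adjusted p = 0.15), and DDIT3 by -2.92 and -0.06 (adjusted p = 0.39). The 3 calls were lost without nutlin 1 or nutlin 2 (adjusted p up to 0.33), and PCK2 also without untreated 1 or untreated 2. On slide 2 alone, with untreated 1 as its 1 untreated array, 27 of the 42 genes were called lower and 1 higher, beside 617 and 711 of all features.

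Several lists gave no call, with 23 genes of protein folding in the endoplasmic reticulum, 27 immediate early, 13 NF-kB, 17 heat shock, 24 ribosomal protein, 19 NRF2 and 9 epithelial genes tested. Over all features 70 of 11526 were called higher (0.607%) and 97 lower (0.842%), for comparison with the lists given here. HSPA5 (BiP), the main chaperone of the endoplasmic reticulum, differed by 0.14 ± 0.26 (adjusted p = 0.87), MYC by 0.63 ± 0.17 (adjusted p = 0.065) and FOS by -1.72 ± 0.73 (adjusted p = 0.24). OAS3, an interferon-induced synthetase, was the 1 call among 24 interferon genes, with 6.40, 6.66 and 6.71 with nutlin, below 7.30, 7.54 and 7.48 without (-0.91 ± 0.17, adjusted p = 0.012), and untreated p53KO cells had 6.41 to 7.03. PES1, which acts in 60S ribosome assembly, was the 1 call among 29 ribosome biogenesis genes (0.59 ± 0.14, adjusted p = 0.036), and ACAT2, an acetyl-CoA acetyltransferase, the 1 among 18 cholesterol genes (-0.80 ± 0.15, adjusted p = 0.011). ACTA2, smooth muscle actin, was the 1 call among 7 tested markers of other cell types, with 9.56, 9.58 and 6.29 against 9.01, 7.76 and 7.66 (1.43 ± 0.31, adjusted p = 0.028; as labelled 0.33, adjusted p = 0.90). COL1A1, a fibroblast collagen, lay at 4.82 to 5.38 on these arrays and DES, of muscle, was not tested, and the levels of ACTA2 were 5.85 and 6.11 on p53KO nutlin 1 and 2 and 9.69 on the third. These 4 calls were lost without nutlin 1 or without nutlin 2 (adjusted p up to 0.33).

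**Figure D5:**
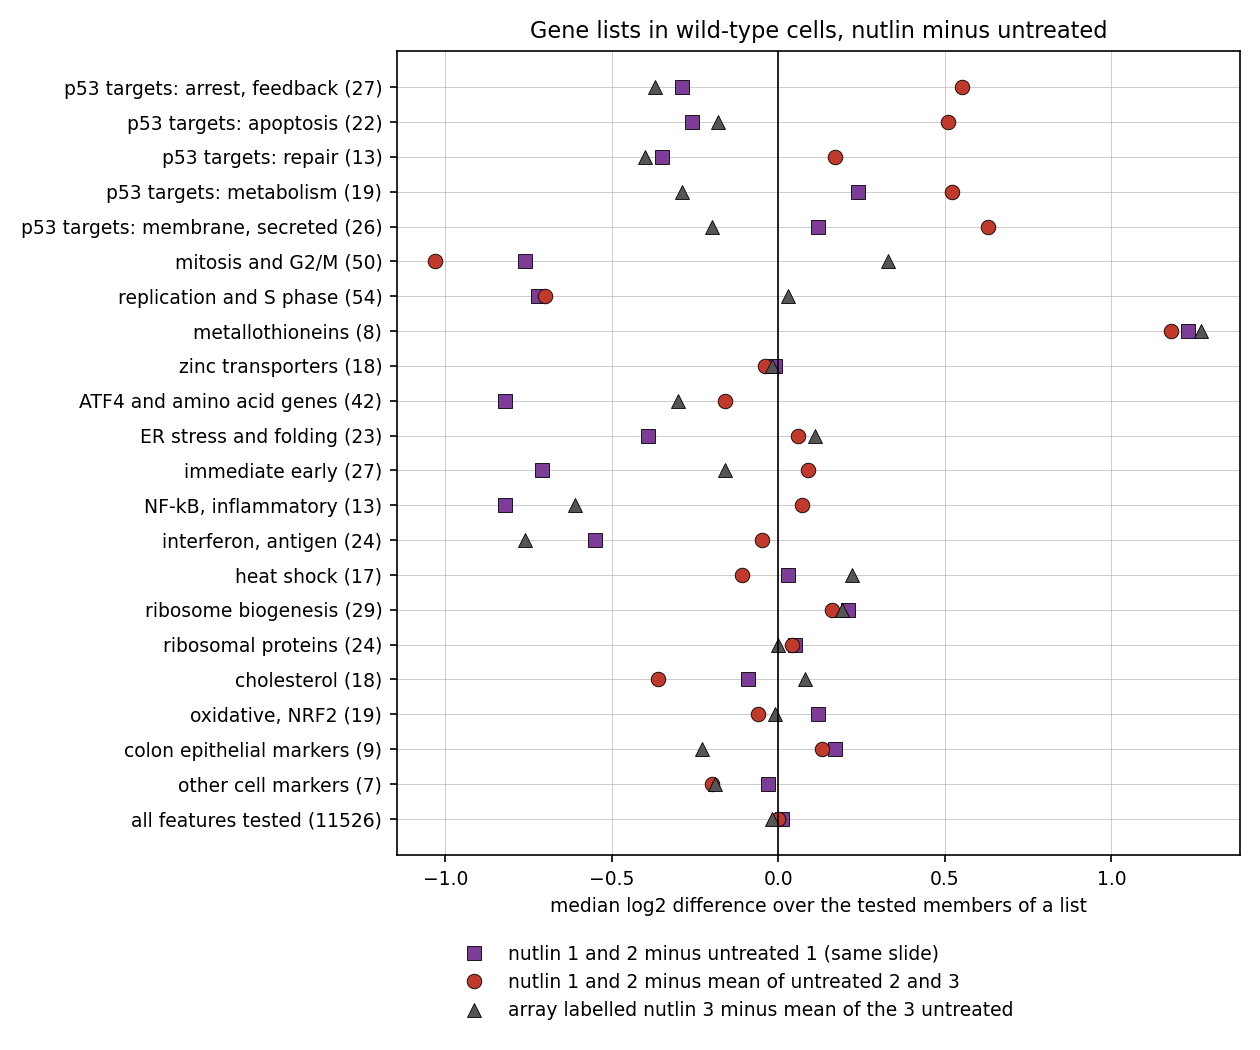
Median log2 difference over the tested members of each gene list in WT cells, with the number tested in brackets. Squares set nutlin 1 and 2 against untreated 1 of the same slide, circles against untreated 2 and 3, and triangles set the array labelled nutlin 3 against the mean of the 3 untreated arrays; only the metallothionein list has all 3 medians above 1 (1.23, 1.18 and 1.27).

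Among the genes called both ways outside the lists, FAM184A had 4.59, 4.36 and 4.21 with nutlin, not detected on any array, against 5.37, 5.38 and 4.99, and was at least 1.38-fold lower (adjusted p = 0.0027). FAM111A, a protease with a role in replication, had 7.59, 7.65 and 6.99, against 8.70, 8.51 and 8.48 (-0.94 ± 0.20, adjusted p = 0.027). KISS1R, the kisspeptin receptor, changed by -0.91 ± 0.17, KANK2 by -0.66 ± 0.14, CCDC77 by -0.99 ± 0.17 and CABLES2 by -1.09 ± 0.25. MYEOV had 12.19, 11.79 and 11.88, against 11.26, 11.01 and 10.71 (0.99 ± 0.18, adjusted p = 0.011), and EEF1AKMT3, a methyltransferase of an elongation factor, 8.19, 8.21 and 8.35 against 7.38, 7.55 and 7.51 (0.72 ± 0.13, adjusted p = 0.011). TSNAX (0.86 ± 0.20), NOL6 (0.77 ± 0.17) and HPS1 (0.71 ± 0.15) were also higher. In each of these 11 genes nutlin 1 and 2 and the array labelled nutlin 3 lay on 1 side of all untreated arrays. The third array went against its genotype label, and in 7 of the 11 all untreated p53KO arrays lay on that side already, such as FAM184A at 4.27 to 4.39, FAM111A at 6.81 to 7.15, MYEOV at 11.59 to 11.76 and EEF1AKMT3 at 7.96 to 8.12. EEF1AKMT3 and FAM184A were called as labelled with any 1 array left out, and the other 9 were not (adjusted p up to 0.19). Without the third arrays EEF1AKMT3 was not called without nutlin 1 or nutlin 2 (adjusted p up to 0.19), nor FAM184A without nutlin 2 (0.17). FGF9 (1.44 ± 0.31, adjusted p = 0.044), of the p53 list at the membrane or secreted, and SNU13 (0.49 ± 0.11), outside the lists, were called as labelled. The other probes of SNU13 gave -0.03 and 0.23. Neither gene was called without the third array (adjusted p = 0.052 and 0.062). For both, all untreated p53KO arrays lay above the untreated WT range, at 7.34 to 7.76 for FGF9 and 11.74 to 11.82 for SNU13.

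Of the genes called without the third array alone, CPA4, a carboxypeptidase, had 9.97, 9.77 and 9.27 with nutlin and 9.03, 8.18 and 7.53 without (1.62 ± 0.37, adjusted p = 0.030; as labelled 1.42, adjusted p = 0.077). In p53KO cells CPA4 had 10.11, 9.91 and 9.14 with nutlin, against 10.40, 9.44 and 9.05 without. ZBED2 had 9.03, 8.26 and 10.55, against 7.08, 7.52 and 7.14 (1.40 ± 0.33, adjusted p = 0.034; as labelled 2.03, adjusted p = 0.094), and untreated p53KO cells had 9.13 to 10.76. TMSB15A (-1.33 ± 0.34), SP4 (-1.11 ± 0.27) and C5orf34 (-1.17 ± 0.30) were lower. None of these 5 was called without nutlin 1 or without nutlin 2 (adjusted p up to 0.63).

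The array labelled WT nutlin 3 had no part in the 167 calls, so its side of the untreated range can be read beside them, though both use the same untreated arrays. Of the 70 features called higher, 33 lay above all untreated arrays on it and 22 below, beside 30.1% and 33.6% of all features. Of the 97 called lower, 48 lay below and 15 above. On the array labelled p53KO nutlin 3, set against the untreated WT arrays, 61 of the 70 lay above (29.6% of all features) and 79 of the 97 below (33.1%).

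The response in WT cells was set against that in p53KO cells as an interaction without the third arrays. limma called 0 features (0%), with 524 of 11526 at an unadjusted p under 0.05. That share is below 0.05, the share expected if no response differed and arrays varied independently. Untreated arrays with equal replicate numbers deviated together across the genotypes (r = 0.78, 0.6 and 0.64), and this fit does not remove such a shared shift. With the replicate block, 1383 features had an unadjusted p under 0.05 in limma and 4 were called. The low share therefore does not show that the responses were alike. The values that follow are from the fit without a block. TP53I3 responded by 2.04 ± 0.70 more in WT, CDKN1A by 1.5 ± 0.54, SULF2 by 1.30 ± 0.29 and CYFIP2 by 1.15 ± 0.28 (adjusted p = 0.52 for SULF2 and CYFIP2, 1.0 for the others). FBXO5 responded by -1.20 ± 0.42, MCM2 by -1.01 ± 0.38 and E2F1 by -0.96 ± 0.32 (adjusted p = 1.0). The list medians of this difference were -1.01 for mitosis, -0.79 for replication, 0.28 for arrest and 0.05 for metallothioneins, beside 0.01 over all features. The median changes in p53KO cells were 0.06, 0.01, -0.08 and 0.90 in that order. In the fit without a block, no gene's response passed the test of a difference between the genotypes.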

How the data were processed

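Bead signals were read from the table that the authors deposited, per the file headers as a linear average intensity and a detection p-value for each probe and array. BeadStudio, per the submitters' processing notes, gave these values (version not given in the sources used here). Also deposited by the authors was a processed intensity, with a median of 10.195 on every array (steps not given in the sources used here). Columns of 26 arrays of other samples were not used. Probes were matched to symbols (21101 of 22177 with 1 symbol, 1076 with none, 20986 updated through gene IDs).

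Raw intensities were background-corrected with neqc (negative controls inferred from detection p, offset 16), quantile-normalised and log2-transformed in limma 3.58.1 (R 4.3.3). A probe stayed in the analysis when 1 group or more had it detected (p under 0.01) on every array (12896), and the probe with the highest mean stood for each gene, giving 11526 features, 10919 with a symbol. All groups entered 1 linear model (20 residual degrees of freedom, 18 without the third nutlin arrays) with eBayes and Benjamini-Hochberg adjustment over all features, and a feature was called at an adjusted p under 0.05. Values after ± are moderated standard errors. A feature not detected in 1 group has a bound, from the other group's mean over the lowest detected signal. The number of arrays limits the precision. On simulated data of 11526 features, 84 of 100 changes of log2 1 and 99 of 100 of log2 2 were recovered without the third arrays. As labelled, 87 and 100 were recovered. Unchanged features gave 6 calls without the third arrays and 8 as labelled. The simulated noise was independent between arrays, with no slide effect and no exchanged label. In the data the slide correlation was 0.304 without the third arrays and 0.501 as labelled. The simulation therefore does not show how many changes these data can detect.

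The members and the 21 gene lists were chosen with earlier results of these data known. Genes were named by rule: the 10 highest and 10 lowest called without the third arrays whose nutlin values lay outside the untreated range, every gene called as labelled, up to 4 called members per list, and a fixed set. Of 71 named genes 56 had a RefSeq promoter. Alternatives covered background, normalisation, filter, probe choice, slide, replicate number and left-out arrays.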

Additional observations from a re-analysis of the deposited data

How the results depend on the processing

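The number of called features depends on the arrays and the spread model more than on the scaling. As labelled (27), no background correction gave 44, the authors' processed intensities 53, only the 6 WT arrays 3, slide as a random block 904, slide as a fixed block 2271, slide 2 alone 1328, without the first untreated and the third nutlin arrays (chosen after seeing the data) 314, and a 2-fold minimum 11; leaving out 1 array gave 8 to 43. Without the third arrays (167), no background correction gave 263, only the WT arrays 0 in limma with 1440 at an unadjusted p under 0.05, slide as a random block 796, as a fixed block 2271, slide 2 alone 1328, without the first untreated arrays 314, and a 2-fold minimum 42; leaving out 1 array gave 9 to 133. The fixed block and slide 2 rest on untreated 1 as the only untreated WT array beside nutlin. Leaving out 1 array means 1 of the WT nutlin or untreated arrays, also for the interaction. No p53KO array was left out singly. The interaction (0) gave 2 on slide 2 alone, 0 as labelled and 0 with any 1 array left out.

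Deviations of same-numbered WT nutlin and untreated arrays from their group means correlated at 0.06, 0.02 and 0.11. All nutlin means in this check include the third arrays, which went against their genotype labels. The check therefore cannot decide whether replicate numbers pair nutlin with untreated arrays, or nutlin arrays across genotypes. The fit with a replicate block called 32 features as labelled, 422 without the third arrays and 4 in the interaction, whose block is the number shared by the genotypes. Same-numbered WT and p53KO arrays correlated at 0.78, 0.6 and 0.64 untreated and at 0.01, -0.44 and -0.29 with nutlin.

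Directions turned in a few called values. CDKN1A, GDF15 and TNFRSF10B, at -0.05, -0.25 and -0.11 as labelled, came to 1.57, 1.49 and 0.65 without the first untreated and the third nutlin arrays. TNFRSF10B, at 0.19 without the third arrays, came to -0.58 with slide as a fixed block and to -0.72 on slide 2 alone. The cause was not tested beyond the levels on untreated 1 given with these genes. Without any filter on dim probes, with probes detected on every array or with the mean of a gene's probes, the totals stayed within 1.5 times (31, 27 and 18 as labelled, and 122, 170 and 151 without the third arrays), but lower calls without the third arrays came to 56 without the filter (97), and higher calls as labelled to 7 with the mean of a gene's probes (14).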
